A study of Mus musculus with 2 samples.

Results

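The 10 genes described here set how a cell leaves the G1 phase of the cell cycle, and their RNA was measured in the mouse hindbrain at embryonic day 11.5. The set was chosen by name: the D cyclins Ccnd1, Ccnd2 and Ccnd3, their partner kinases Cdk4 and Cdk6, the kinase inhibitors Cdkn1a, Cdkn1b, Cdkn2c and Cdkn2d, and Rb1. They are 10 of the 43346 Ensembl genes in the gene tables. The study profiled total RNA from the hindbrain of B6NCrl embryos in 1 group of 2 biological replicates. Pool 1 held hindbrains of 109 embryos and pool 2 those of 88, with both sexes mixed, no genetic change and no treatment named. Library input was 10 ng of RNA above 200 nt in length, to which ERCC spike-ins, synthetic control RNAs, had been added. With 1 group there is no contrast between conditions and no p-value. The spread between the pools is the error, and it mixes biological and technical differences.

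D cyclins accumulate when mitogen and patterning signals reach a cell, and they bind and activate Cdk4 and Cdk6. The active kinases phosphorylate the retinoblastoma protein and its relatives, which releases E2F transcription factors and lets genes of DNA synthesis be transcribed. Inhibitors of the Ink4 class bind the kinases directly, those of the Cip/Kip class bind cyclin-kinase complexes, and both are known for holding cells in G1 or accompanying their exit from the cycle. In the early hindbrain, dividing progenitors line the ventricle and newly formed neurons lie outside them. In pooled tissue, fewer cells of a type and less RNA per cell cannot be told apart.

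Expected counts, which are estimated read numbers that need not be whole, summed to 45340440 in pool 1 and 41261544 in pool 2. Levels are TPM, a gene's share of the library per unit of transcript length. Spike-ins held 16.2% of TPM in pool 1 and 22.2% in pool 2, and the log2 ratio of the median gene, pool 2 over pool 1, was -0.11. Ratios between the pools are therefore given on the log2(TPM + 1) scale, less that of the median gene. Marker lists for the tissue were detected in both pools: 8 of 8 neural progenitor markers summed to 2394 and 2164 TPM, 8 of 8 neuron markers to 2146 and 1904, and 5 of 5 hindbrain Hox genes to 123 and 117. Other cells were present too, since 8 of 8 erythroid markers summed to 14196 and 13381 TPM, 8 of 8 mesenchyme markers to 575 and 531, 8 of 8 endothelial markers to 127 and 112, and 8 of 8 macrophage markers to 96.4 and 95.1. Skeletal muscle markers summed to 59.9 and 26.2 TPM, with 4 of 6 detected in both pools and 4 over 1.5-fold lower in pool 2. Of the surface and otic markers 6 of 6 were detected, and they summed to 159 and 101 TPM. The otic gene Oc90 was at 105 and 47.6 TPM, while the other 5 summed to 54.2 and 53.4 and 4 of the 6 had ratios above the median gene. Among the progenitor markers Hes5, a Notch target, was at 202 and 109 TPM, over 1.5-fold lower in pool 2, and Sox2 was at 25.2 and 15.4. Of the remaining markers, Cx3cr1 of the macrophage list, at 3.20 and 4.96 TPM, was over 1.5-fold higher in pool 2. The part of these cell types in the levels below was not tested.

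The 10 genes were detected in both pools, at a TPM of at least 1. Their levels ran from 3.83 ± 0.057 TPM (SD, n = 2) for Cdkn2c to 1883 ± 144 for Cdk4. The order by mean level was Cdk4, Ccnd2, Ccnd3, Ccnd1, Cdkn2d, Rb1, Cdkn1a, Cdkn1b, Cdk6 and Cdkn2c. Neighbours in this order had separate pool values except for the pair Ccnd3 and Ccnd1 and the pair Rb1 and Cdkn1a. Rb1 was above Cdkn1a in pool 1 and below it in pool 2. None of the 10 genes was over 1.5-fold apart between the pools, which is 0.58 on the log2 scale. Of 14942 genes whose mean TPM reached 1, 893 were (5.98%), and of the 12773 that also had at least 100 reads in each pool, 351 were (2.75%). The members' ratios had a median of -0.05 and ran from -0.27 for Rb1 to 0.34 for Cdk6, with 7 below that of the median gene and 3 above it. With no filter on low values the median gene's ratio became 0 and 9 members lay below it.

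**Figure D1:**
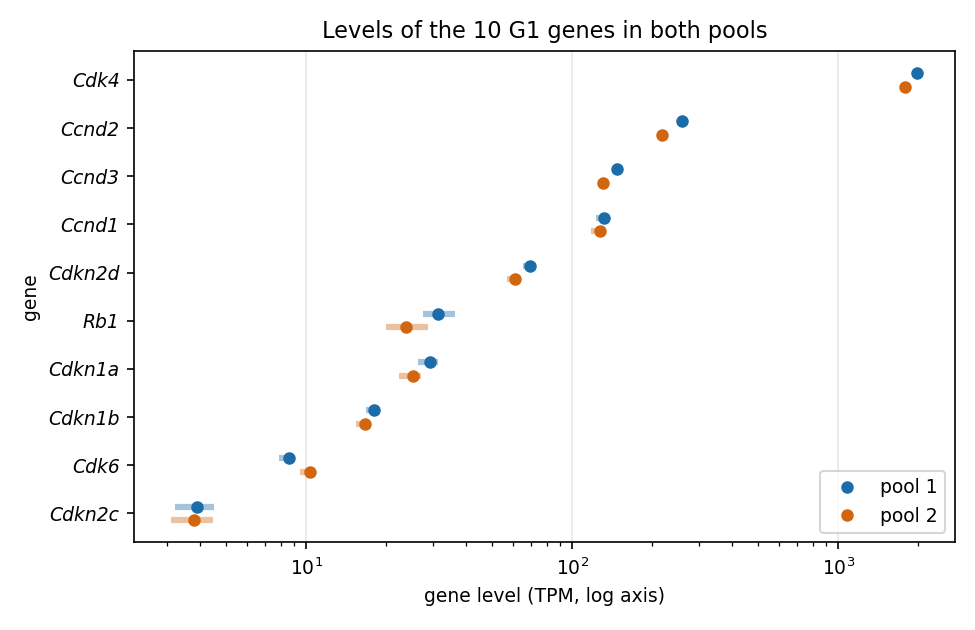
Level of each G1 gene in TPM on a log axis. Points are the 2 pools and bars the deposited interval of each value, of unknown confidence level. Cdk4 lies at 1984 and 1781 TPM, the 3 D cyclins between 127 and 258, and Cdkn2c below 4.

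**Figure D2:**
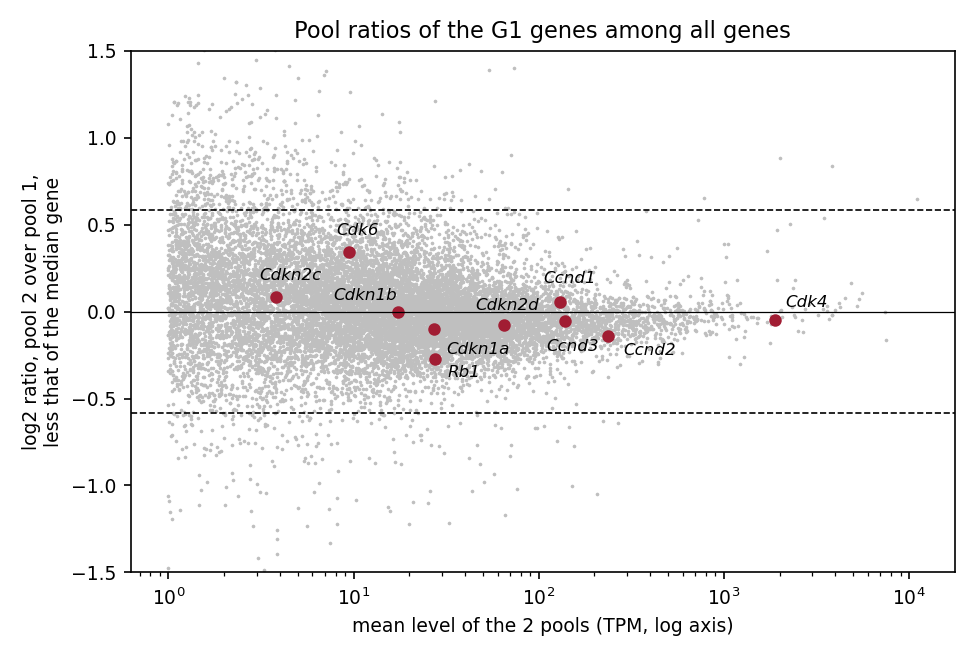
Ratio of the pools against mean TPM (log axis) for 14833 genes that have a symbol and a mean TPM of 1 or more. Red points are the G1 genes, dashed lines mark 1.5-fold, and 134 genes lie beyond the axis limits of 1.5 either way. The red points lie inside the dashed lines.

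The D cyclins were abundant. Ccnd2, on the minus strand of chr6:127125162-127152193 (GRCm38, as are all gene positions here), measured 258 TPM in pool 1 and 217 in pool 2, from 42565 and 34328 reads. Ccnd3, on the plus strand of chr17:47505051-47599691, measured 147 and 131 TPM from 7970 and 6809 reads. Ccnd1, on the minus strand of chr7:144929931-144939925, measured 132 and 127 TPM from 11763 and 9747 reads. The means were 238 ± 29.4 for Ccnd2, 139 ± 11.3 for Ccnd3 and 130 ± 3.44 for Ccnd1. Ccnd2 was the highest D cyclin in both pools, and its pool values overlapped neither of the others. Among detected coding genes Ccnd2 stood at percentile 96.2 and 95.9, Ccnd3 at 92.8 and 92.7, and Ccnd1 at 91.8 and 92.4. Of the summed D cyclin TPM, 48.1% in pool 1 and 45.7% in pool 2 was Ccnd2 (46.9% ± 1.72). Ccnd3 held 27.3% and 27.5%, and Ccnd1 24.6% and 26.8%. The pool ratios were -0.14 for Ccnd2, -0.06 for Ccnd3 and 0.05 for Ccnd1, and the sign of the last turned in other settings. The Ccnd1 ratio was -0.08 from scaled read counts, which take no account of length, and -0.05 with no filter on low values. With all its reads set over the length of its coding transcript it was -0.10.

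Ccnd2 has 1 transcript in the deposited tables, of 5701 nt, so its level does not depend on a split between isoforms. Its exons share 372 bases with the antisense gene Gm43126 and 368 with 9330179D12Rik, which was at 0.94 and 1.60 TPM. Ccnd3 has 21, of which Ccnd3-205 held 94.8% and 95.7% of the gene's TPM and the other 20 stayed below 10% each. Its exons share 361 bases with Bysl, a gene for ribosome assembly on the opposite strand, at 23.3 and 21.2 TPM. A Ccnd3 pseudogene, Ccnd3-ps, held 2 and 6 reads. Ccnd1 has 2 transcripts: the coding Ccnd1-201 of 3740 nt, and Ccnd1-202, a retained-intron transcript of 470 nt with no coding sequence. Ccnd1-202 took 18.7% and 28.4% of Ccnd1 TPM but 2.29% and 3.89% of its reads. This difference of 9.70 points between the pools was the largest of any transcript of the set. Ccnd1-201 shares 1100 bases with exons of LTO1, a ribosome biogenesis gene on the opposite strand at 20.3 and 19.5 TPM. Ccnd1-202 shares 375 bases with Ccnd1-201 and has 95 of its own. Its sequence across the point where intron passes into exon is shown here because those 95 bases, of which the last 20 are printed, are what separates it from the coding transcript. It was read from chr7:144938073-144938122, minus strand, with intron bases in capitals and shared exon bases in lower case.
Ccnd1-202: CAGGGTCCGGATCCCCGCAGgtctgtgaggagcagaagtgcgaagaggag

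Cdk4, the kinase that D cyclins activate in most proliferating cells, was the highest of the 10 genes. It lies on the plus strand of chr10:127063534-127067920 and measured 1984 TPM in pool 1 and 1781 in pool 2, from 44432 and 37769 reads, at percentile 99.8 in both. Cdk6, its close relative on the plus strand of chr5:3341485-3531008, measured 8.59 and 10.3 TPM from 919 and 1056 reads, at percentile 32.3 and 37.7. Cdk4 TPM was therefore 231 times that of Cdk6 in pool 1 and 173 times in pool 2, a log2 difference of 7.50 ± 0.28. The pool ratio was -0.05 for Cdk4 and 0.34 for Cdk6. Cdk6 was the member with the highest ratio. In size that of Rb1 was larger with no filter on low values, at -0.38 against 0.24 for Cdk6. With reads set over the length of the main coding transcript, Rb1 was at -0.354 and Cdk6 at 0.342. The deposited intervals of Cdk6 did not overlap between the pools. The intervals were also separate for Cdk4, Ccnd2, Ccnd3 and Cdkn2d before the shift of the median gene was taken off, and for Cdk4, Ccnd2 and Cdk6 after it. The share of all genes with separate intervals was not computed. Separation is therefore not read as a trait of these members or as a difference between the pools. For Cdk4 and Ccnd2 the deposited TPM lay outside its own interval in both pools.

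Most of the Cdk4 TPM was assigned to transcripts that are not annotated with the complete coding sequence of the kinase. Cdk4 has 9 transcripts, and Cdk4-209, a retained-intron transcript of 468 nt, took 41.2% and 42.4% of the gene's TPM with 20.0% and 20.9% of its reads. Cdk4-205, a coding model of 950 nt that is not complete, took 24.5% and 21.8%. Cdk4-208, annotated as a target of nonsense-mediated decay, which degrades RNAs with an early stop, took 18.4% and 17.4%. Cdk4-201, the complete coding transcript of 2053 nt, took 9.05% and 8.61% of TPM and 23.2% and 22.4% of reads, at 179 and 153 TPM. The shares of these 4 transcripts were close in both pools, within 2.68 points. Cdk4-205 and Cdk4-208 have 0 bases outside the other Cdk4 transcripts, and splice junctions that could tell the models apart were not examined. Cdk4-209 has 25 such bases and shares 443 with Cdk4-201, and Cdk4-201 has 692. Of the Cdk4-201 bases, 641 lie in exons of Tspan31, a tetraspanin gene on the opposite strand at 78.8 and 87.2 TPM. The start of Cdk4-209 is shown because its 25 intron bases set it apart, of which the last 20 are printed. It was read from chr10:127066081-127066130, plus strand, with intron bases in capitals and shared exon bases in lower case.
Cdk4-209: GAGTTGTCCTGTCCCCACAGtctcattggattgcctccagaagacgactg

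Dividing the reads of a gene by the length of its main coding transcript, the complete coding transcript with the most reads, gives a level in which a read assigned to a short transcript counts as much as any other, while in deposited TPM it counts for more. This measure was added after the data had been seen. On it Cdk4 measured 773 and 684 TPM (729 ± 63.1), so the deposited gene level was 2.57 and 2.60 times as high. Cdk4 remained the highest of the 10, at 90.0 and 66.5 times Cdk6. The summed kinases were 3.71 and 3.77 times the summed D cyclins in deposited TPM, and 1.53 and 1.58 times on the main coding length. Counting only the TPM assigned to the main coding transcript, Cdk4 was at 166 ± 18.5 and Ccnd2 at 238 ± 29.4, and Ccnd2 was then the highest in both pools. On this basis the summed kinases lay below the summed D cyclins, so that relation turned. Cdk4 also exceeded Cdk6 by less, at 179 and 153 TPM against 8.59 and 10.3. Cdk6 was at 9.43 TPM on the main coding length and 9.44 in deposited TPM on average, and Cdk6-202 held 100% and 99.7% of its TPM. The deposited Cdk6-202 model is 3735 nt, against 11525 nt in the later GENCODE vM21 annotation, and its level per length rests on the shorter model. Cdk6 exons share 368 bases with the antisense gene Gm17590.

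**Figure D3:**
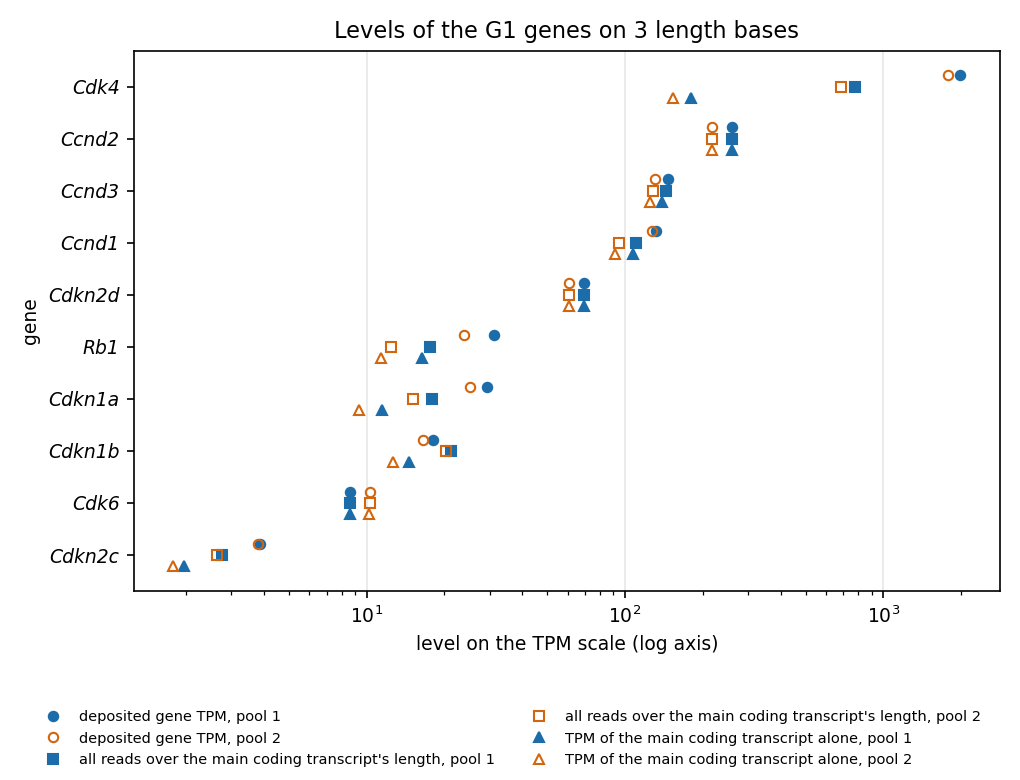
Level of each G1 gene on 3 length bases (log axis): deposited gene TPM, reads over the main coding transcript's length, and TPM of that transcript alone. Filled symbols are pool 1 and open symbols pool 2. Cdk4 has means of 1883, 729 and 166 on the 3 bases, while the symbols of Ccnd2, Cdkn2d and Cdk6 lie above one another.

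The window of 250 bases upstream of the Cdk4 start is shown because Cdk4 was the most abundant member. It is from RefSeq, chr10:127063285-127063534 (GRCm38.p6), plus strand, with the E-box letters CACGTG in capitals. This palindrome reads alike on both strands and is known as a binding sequence of basic helix-loop-helix proteins such as Myc. It occurred 4 times in the Cdk4 window, whose GC content was 64.4%.
Cdk4 upstream window: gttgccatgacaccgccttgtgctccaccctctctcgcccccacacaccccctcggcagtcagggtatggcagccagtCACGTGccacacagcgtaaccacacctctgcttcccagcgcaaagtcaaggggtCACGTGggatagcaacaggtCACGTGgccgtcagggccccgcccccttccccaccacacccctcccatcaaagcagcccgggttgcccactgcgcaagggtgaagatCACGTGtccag
Of 32851 windows of this length, 6.02% held the letters at least once and 7 (0.0213%) held them 4 or more times. The cut-off of 4 was taken from the Cdk4 window itself and for this motif only, so that share is not a test. A link of these letters to the level of Cdk4 was not tested. RefSeq windows were found for 7 of the 10 members, 10 windows in all, and 2 of the 10 held CACGTG, that of Cdk4 and that of Cdk6, the latter once. The E2F letters TTTCCCGC, TTTGGCGC, TTTCGCGC and TTTGCCGC, searched on both strands, occurred in 0 of the 10 windows and in 1.86% of all 32851. The GC box GGGCGG occurred in 7 of the 10 windows, from 6 members, against 32.7% of all windows. CCAAT occurred in 3 windows against 33.8%, and TATAAA in 1, that of Cdk6, against 12.4%. These letters too were searched on both strands. A match describes letters, not binding. The windows of all genes were not matched on GC content, which ran from 42.8% to 77.2% in the 10 windows. Ccnd1, Ccnd2 and Rb1 were not matched to a window.

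The 4 inhibitors together measured 120 TPM in pool 1 and 106 in pool 2. Cdkn2d, the Ink4 inhibitor p19, on the minus strand of chr9:21288410-21291407, was the highest, at 69.1 and 60.7 TPM from 2382 and 2011 reads. Its relative Cdkn2c, the Ink4 inhibitor p18, on the minus strand of chr4:109660876-109667189, was the lowest of the 10 genes, at 3.87 and 3.79 TPM. Cdkn2c rested on 193 and 177 reads, with 95% exact Poisson intervals of 167 to 222 and 152 to 205 that cover counting error only. The Ink4 pair was thus uneven, with Cdkn2d TPM 17.9 and 16.0 times that of Cdkn2c. Cdkn1a, the Cip/Kip inhibitor p21 that p53 induces, on the plus strand of chr17:29090976-29100727, measured 29.2 and 25.1 TPM from 950 and 774 reads. Cdkn1b, the Cip/Kip inhibitor p27, on the plus strand of chr6:134920401-134925513, measured 18.0 and 16.6 TPM from 1435 and 1317 reads. The means were 64.9 ± 5.93 TPM for Cdkn2d, 27.2 ± 2.90 for Cdkn1a and 17.3 ± 1.02 for Cdkn1b. Cdkn2d held 57.5% and 57.2% of the summed level of the 4, Cdkn1a 24.3% and 23.6%, Cdkn1b 15.0% and 15.6%, and Cdkn2c 3.22% and 3.57%. The pool ratios were -0.08 for Cdkn2d, 0.08 for Cdkn2c, -0.10 for Cdkn1a and -0.0050 for Cdkn1b. The signs of Cdkn2c and Cdkn1b turned in at least 1 other setting.

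The order of the Cip/Kip pair depended on length. Cdkn1a was 1.62 and 1.51 times Cdkn1b in deposited TPM, but 0.839 and 0.744 times on the main coding length. On that measure Cdkn1b was at 20.8 ± 0.671 and Cdkn1a at 16.5 ± 1.92, with no overlap between their pool values. Below Cdkn2d, the order on the main coding length was Cdkn1b, Cdkn1a, Rb1, Cdk6 and Cdkn2c in both pools. Cdkn1b has 2 transcripts with the same 591-nt coding sequence, of which Cdkn1b-201 (2393 nt) took 81.0% and 76.2% of TPM and Cdkn1b-202 (4552 nt) 19.0% and 23.8%. The longer Cdkn1b-202 held 31.3% and 37.8% of reads and has 2159 bases of its own. Setting these reads over the shorter Cdkn1b-201 raised Cdkn1b. Its deposited level was 0.848 and 0.817 times that on the main coding length. A level over the longer transcript was not computed, so the turned order of the pair rests on this choice of length. Cdkn2d has 1 transcript in the tables.

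Cdkn1a and Cdkn2c are each annotated with transcripts that start far apart and share a coding sequence. Cdkn1a-202 starts at position 29090979 of chromosome 17 and took 60.7% and 53.4% of Cdkn1a TPM. Cdkn1a-201 starts at 29093769 and took 39.3% and 37.1% of TPM, with 64.4% and 61.6% of reads, as it is the longer. Cdkn1a-203 took 0% and 9.49%. The 3 models have the same 477-nt coding sequence. Cdkn1a exons share 273 bases with AC167363.2, an unverified gene model on the opposite strand. The windows before both starts are shown to compare them, from RefSeq (GRCm38.p6, plus strand), with GGGCGG or its reverse complement in capitals. The far window lies at chr17:29090729-29090978 and the near window at chr17:29093519-29093768.
Cdkn1a far window: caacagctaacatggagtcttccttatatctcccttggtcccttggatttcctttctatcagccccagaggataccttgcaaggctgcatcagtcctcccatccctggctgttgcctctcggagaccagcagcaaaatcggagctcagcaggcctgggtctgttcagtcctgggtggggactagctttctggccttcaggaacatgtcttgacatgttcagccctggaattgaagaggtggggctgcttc
Cdkn1a near window: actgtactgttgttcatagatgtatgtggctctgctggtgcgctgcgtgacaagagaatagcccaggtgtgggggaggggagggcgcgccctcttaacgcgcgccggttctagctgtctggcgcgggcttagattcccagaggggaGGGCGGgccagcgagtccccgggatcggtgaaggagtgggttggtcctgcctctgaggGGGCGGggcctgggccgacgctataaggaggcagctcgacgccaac
The far window had 54.0% GC and 0 GC boxes, and the near window 64.8% GC and 2. Cdkn2c-201 starts at 109665372 of chromosome 4 and took 49.4% and 52.8% of Cdkn2c TPM, with 29.3% and 32.2% of reads. Cdkn2c-202 starts at 109667189 and took 50.6% and 47.2% of TPM, and both encode the same 504 nt. The RefSeq window at the start of Cdkn2c-201 had 42.8% GC and 0 GC boxes. The other Cdkn2c window, whose RefSeq start lies 433 nt from that of Cdkn2c-202, had 77.2% GC and 3 GC boxes.

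Summed D cyclins were 4.47 times the 4 inhibitors in both pools, 537 over 120 TPM in pool 1 and 475 over 106 in pool 2. This relation turned when Cdkn1c was counted. Cdkn1c, the Cip/Kip inhibitor p57 and the remaining gene of that class, measured 590 and 464 TPM (527 ± 89.4), which was 4.91 and 4.37 times the 4 other inhibitors together. With it, D cyclins were 0.756 and 0.833 times the inhibitors. TPM compares RNA per length and says nothing of protein amounts.

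Rb1, which encodes the retinoblastoma protein that holds E2F factors inactive, lies on the minus strand of chr14:73183673-73325822. It measured 31.2 TPM in pool 1 and 23.8 in pool 2, from 2354 and 1605 reads, at percentile 65.4 and 60.6, with a mean of 27.5 ± 5.26 TPM. Its ratio of -0.27 was the lowest of the set, 1.21-fold lower in pool 2 than the median gene. The coding Rb1-201 of 4656 nt took 52.7% and 48.0% of Rb1 TPM but 93.7% and 91.6% of its reads. Rb1-206, a non-coding transcript of 408 nt, took 30.3% and 30.0% of TPM, and its 408 bases all lie in exons of Lpar6. Lpar6 is a lysophosphatidic acid receptor gene inside an Rb1 intron, on the opposite strand, at 11.8 and 13.3 TPM. Rb1-202, of 411 nt, took 13.3% and 12.8% of TPM, and 383 of its bases lie in exons of Rcbtb2 on the opposite strand, at 118 and 102 TPM. No source used here gives the strand setting, so reads of these genes and of the short Rb1 transcripts may not be separable. On the main coding length Rb1 was at 17.6 and 12.5 TPM (15.0 ± 3.60), and the deposited gene level was 1.78 and 1.91 times as high.

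Across the set, 18 of 49 transcripts exceeded 10% of their gene's TPM in at least 1 pool, and 13 of those had an annotated start and stop codon. These include Cdk4-208, and Cdkn2d-201, whose coding sequence in vM21 is 150 nt. The main coding transcript held over 50% of TPM in both pools for 6 members and over 50% of reads for 9. Cdk4 was the exception by reads. The deposited gene level exceeded that on the main coding length by most for Cdk4 (2.57 and 2.60 times) and Rb1 (1.78 and 1.91 times).

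**Figure D4:**
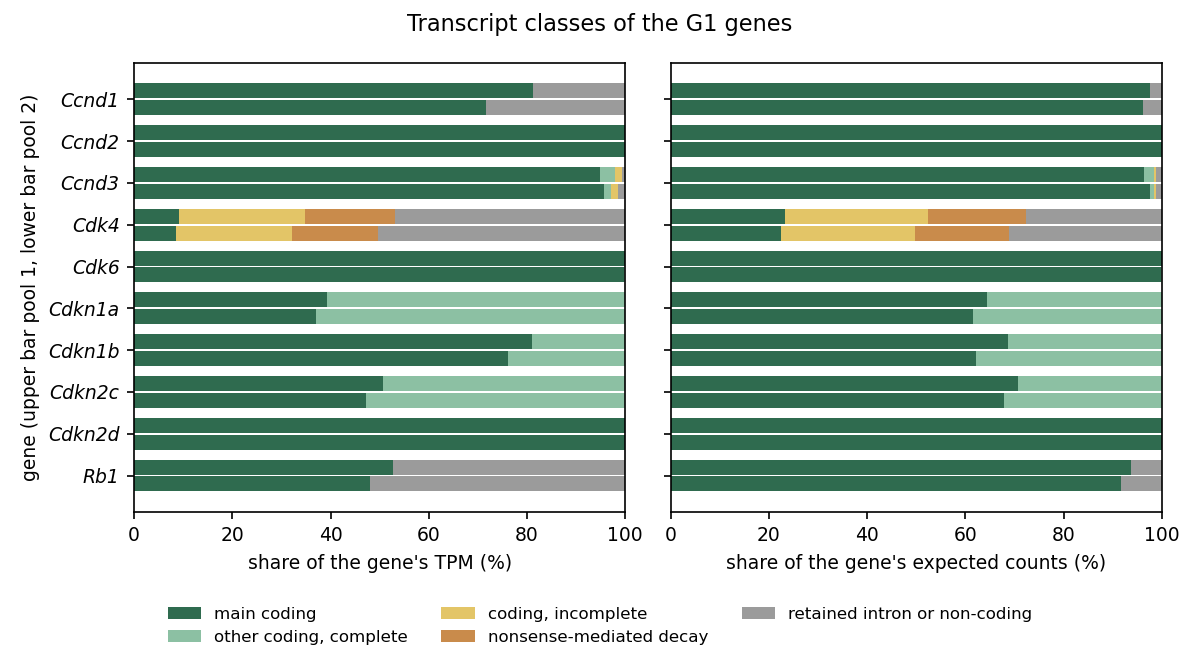
Share of each G1 gene held by classes of transcript, as a percent of TPM (left) and of expected counts (right). The upper bar of a gene is pool 1 and the lower bar pool 2. The grey class takes 46.8% and 50.4% of Cdk4 TPM, and 47.3% and 52.0% of Rb1 TPM but 6.33% and 8.39% of Rb1 reads.

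The rest of the G1 pathway was described with 42 genes in 5 lists. Of these, Cdkn2a, at 0 counts, and Cdkn2b, at a mean of 0.87 TPM, did not reach a mean TPM of 1. The others reached it, with at least 100 reads in each pool. Of all genes that did so, 2.75% were over 1.5-fold apart between the pools. None of the 42 was. With no filter on low values 1 was, the phosphatase gene Cdc25a of the turnover and assembly list, at 23.4 and 15.1 TPM, which is named after its values were seen. Of the other inhibitors and pocket proteins, 3 of 5 were detected in both pools. After Cdkn1c came the Rb1 relatives Rbl1, at 22.3 and 21.5 TPM, and Rbl2, at 13.2 and 12.1. Rbl1 was 0.713 and 0.903 times Rb1. Cdkn2b, an Ink4 inhibitor, was at 0.81 and 0.93 TPM. Cdkn2a, the Ink4 and Arf gene, was listed at 0 counts in both pools, and a count of 0 allows up to 3. Among the Ink4 genes, Cdkn2d was thus the highest and Cdkn2a was not detected at this depth.

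The next cyclins and kinase of the cycle, which act after the D cyclins, were lower than them. Cdk2 measured 62.3 and 49.3 TPM, Ccne2 48.9 and 41.7, and Ccne1 45.6 and 39.2. Summed D cyclins were 5.69 and 5.87 times the summed E cyclins. The 10 E2F and DP factors, only some of which Rb1 and its relatives bind, were detected in both pools. The highest were Tfdp1, a DP partner, at 140 and 116 TPM, E2f4, a mainly repressive E2F, at 71.2 and 64.1, and Tfdp2, a DP partner, at 60.3 and 55.7. E2f2, an activating E2F, was the lowest at 4.68 and 3.81 TPM. Their median ratio was -0.06, with 7 of 10 below the median gene.

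Genes for the turnover and assembly of G1 complexes were detected in 14 of 14 cases, with a median ratio of -0.06 and 11 below the median gene. The highest were Cks1b, a cofactor in p27 degradation, at 312 and 283 TPM, Rbx1, a RING subunit of cullin ubiquitin ligases, at 259 and 222, and Cdc37, the chaperone partner that loads kinases such as Cdk4 onto Hsp90, at 155 and 143. Fbxo31, an F-box protein that targets cyclin D1, was the lowest at 8.78 and 8.77 TPM. The 10 targets of E2F at the G1 to S transition were also detected. Rrm2, a ribonucleotide reductase subunit, measured 295 and 230 TPM, Pcna, the replication clamp, 251 and 216, and Mcm6, a subunit of the replicative helicase, 215 and 177. Mybl2, a transcription factor of the cycle, was the lowest at 15.0 and 12.2. These 10 were below the median gene in pool 2 with a median ratio of -0.17, from -0.25 to -0.05, and stayed so under each of 7 other settings. Of those settings, the main coding length leaves these genes unchanged. FPKM and TPM rescaled over coding nuclear genes apply a factor per library, which taking off the median gene's ratio nearly cancels. The 8 progenitor markers had a median ratio of -0.01, with 4 below the median gene and 4 above it. The lowest were Hes5 at -0.78 and Sox2 at -0.57, and the highest ratio was 0.25. The part of these markers in the lower values of the E2F targets was not tested. By construction 7471 of 14942 genes lie below the median gene, which is taken over all gene types with a mean TPM of at least 1. The share among coding genes of like level was not computed. Below the median gene also lay 3 of 3 genes of the E cyclin and Cdk2 list and 11 of 14 turnover and assembly genes. Of the E2F and DP factors 7 of 10 did, and of the other inhibitors and pocket proteins 2 of the 3 that reached a mean TPM of 1. The 10 G1 genes had a median of -0.05 on the same scale.

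**Figure D5:**
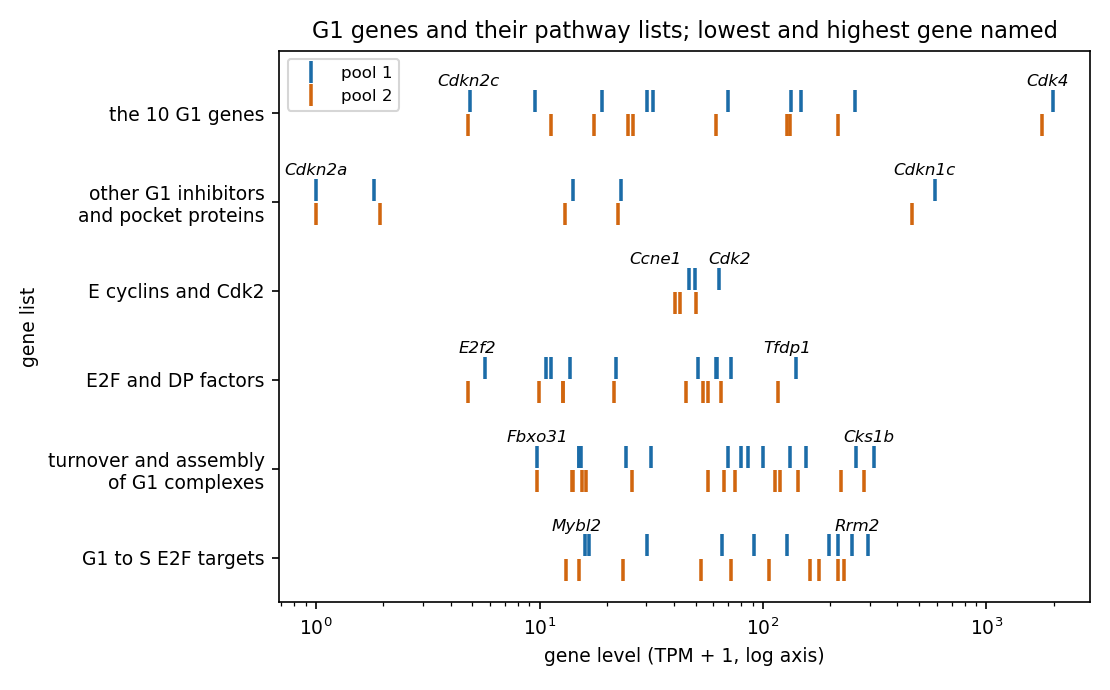
Levels of the 10 G1 genes and of the 5 pathway lists, as TPM + 1 on a log axis. Each stroke is a gene, blue for pool 1 and orange for pool 2, with the lowest and highest gene of a list named. Cdkn1c at 590 and 464 TPM stands between Cdk4 and the D cyclins, and Cdkn2a is at 0.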

How the data were processed

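Per the labels, extraction used the mirVana kit, a Smart-Seq document is linked and the assembly was mm10. A readme deposited with the tables gives the annotation as GENCODE M4. What aligned and quantified the reads, with which strand setting and interval level, was not given in the sources used here. The authors deposited tables of genes and of transcripts for both libraries. Per the file headers their columns are an expected count, made by estimating how many reads came from each entry, TPM and FPKM, the bounds of an interval around TPM, and, for transcripts, an isoform percent of the gene's TPM. TPM is relative to the 69691 entries of a table, spike-ins included, and FPKM to length and library size.

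Symbols, transcript models and GRCm38 coordinates (1-based) came from GENCODE vM21, matched on Ensembl identifiers for 42462 of 43346 genes and for 49 of 49 transcripts of the 10 genes. Lengths were equal in both annotations for 43 of the 49. Bases shared between transcripts or genes were counted in vM21 models. Upstream windows and their build, GRCm38.p6, are RefSeq's.

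Both samples form 1 group, so no test was run. Depth was 45340440 and 41261544 expected counts. Detection meant a TPM of 1 or more, and a gene was called over 1.5-fold apart from log2(TPM + 1) less the ratio of the median gene. The members and lists were chosen with earlier results of these data known. Named were the 10 members, in each pathway list the 3 highest genes and the lowest by mean TPM, pathway genes over 1.5-fold apart at a mean TPM of at least 5, genes overlapping a member, and transcripts above 10%. Cdk4-201, Cdkn1a-203, Cdkn2b, Cdc25a and the markers Hes5, Sox2, Oc90, Myod1 and Cx3cr1 fall outside this rule and were named after their values were seen. With 2 libraries no likeness of pattern can be measured.

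Alternatives were a pseudocount of 0.1, FPKM, TPM rescaled over coding nuclear genes, TMM (edgeR 4.0.16) and DESeq2 1.42.0 size factors in R 4.3.3 on rounded expected counts, no filter, detection at 0.5 and 5, counts per effective length, and each replicate alone. The main coding length, shares of reads, Cdkn1c among the inhibitors and the share of windows with 4 or more E-boxes were added after seeing the data. Other steps ran in Python 3.11.15 with pandas 2.3.3, NumPy 2.4.6, SciPy 1.17.1 and Matplotlib 3.10.9. The ratio step was tested on simulated data.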

Additional observations from a re-analysis of the deposited data

How the results depend on the processing

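No paired analysis was possible because the series has 1 group. The count of members over 1.5-fold apart was 0 under 7 other settings, and the largest size of any member's log2 ratio was 0.39, for Cdk6 with DESeq2 size factors. These settings are not independent checks. FPKM and rescaled TPM differ from TPM by a factor per library, and TMM and DESeq2 scale the same counts. The ratios of Ccnd1, Cdkn1b and Cdkn2c changed sign in at least 1 setting and those of the other 7 members did not. At a detection TPM of 5, 9 members were detected. On the main coding length the Ccnd2 share was 49.9%, the log2 difference of Cdk4 and Cdk6 was 6.13 and that of D cyclins and the 4 inhibitors 2.18, against 2.16 in deposited TPM. With Cdkn1c among the inhibitors the last became -0.33 (-0.40 and -0.26 in the pools). Each replicate alone gave a Ccnd2 share of 45.7% to 48.1%, a Cdk4 to Cdk6 difference of 7.30 to 7.69, and a difference of D cyclins and inhibitors of 2.16. On the main coding length the mean levels of 6 members moved by more than the SD between the pools and those of 4 did not. Other units rescale the levels and are not compared. With 2 libraries an SD is loosely known, and depth limits Cdkn2c most, at 193 and 177 reads.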
